A study of Mus musculus with 6 samples.

Results

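Immediate early genes are transcribed within minutes of a growth factor, serum or stress signal, without new protein synthesis. Signals that pass through ERK reach serum response factor and its ETS-family partners at genes such as Egr1 and Fos, while stress kinases act on JUN. FOS and JUN proteins pair through their leucine zippers to form the AP-1 transcription factor, and EGR1 is a zinc finger factor. In mouse embryonic stem cells ERK signalling is associated with the exit from self-renewal. The set described here has 9 genes: the FOS family members Fos, Fosb and Fosl1, the JUN family members Jun, Junb and Jund, the zinc finger gene Egr1, and the early response genes Ier2 and Ier3. They were chosen as named genes of this class, and every probe that the platform annotation gives to one of them was taken. Of the 9 genes, 8 had a probe, with 9 probes among 45281 on the array, and Fosl1 had none named here.

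The RNA came from mouse embryonic stem cells electroporated with a pHYPER vector. The Chd1 shRNA group (n = 3) received a hairpin against the chromatin remodeller gene Chd1, and the control group (n = 3) a control vector, whose insert the sources used here do not give. Puromycin was added 24 h after electroporation for 48 h in both groups, and all cells were kept in 15% serum with leukemia inhibitory factor over embryonic fibroblasts arrested with mitomycin C, so serum, an inducer of these genes, was present throughout. Each sample was hybridised to 1 array of a single Illumina BeadChip. The labels give no replicate numbers, and those used here follow the order in which the samples of a group are listed. The sources used here give neither the cell line nor whether the samples of a group were separate cultures. The p-values therefore reflect only how far these samples varied, which may be technical.

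The arrays detected 16285 to 17391 probes in the Chd1 shRNA group and 15663 to 15925 in the control group at a detection p-value under 0.05, and array number limits the precision of every value. Of 4 Chd1 probes, 3 were lower on all Chd1 shRNA arrays than on all control arrays, at 23.5% to 44.7% of the control level. The remaining probe stood at 92.5% of the control level with overlapping groups, at 4.74 to 5.48 (normalized log2 intensity), near the detection limit. None of the 4 passed an adjusted p of 0.05 by limma. All 16 embryonic stem cell markers listed were detected, among them Pou5f1 and Nanog. Fibroblast markers were detected as well: 17 of 24 listed genes had a probe past the detection filter, while Col1a2, Col5a2 and Postn were detected on no array. Their summed normalized intensity was 11852 to 21745 on Chd1 shRNA arrays and 6145 to 17230 on control arrays. Relative to each gene's 6-array mean, the median fibroblast marker stood at -0.24, 0.57 and 0.83 (log2) on Chd1 shRNA replicates 1, 2 and 3, and at -0.59, -0.68 and 0.32 on control replicates 1, 2 and 3. In RNA of whole cultures, more cells of a type and more RNA per cell cannot be told apart. Each group also occupied 3 neighbouring positions of the chip, and chip position cannot be told apart from group.

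Probe intensities were background-corrected, quantile-normalized and put on a log2 scale, and differences are Chd1 shRNA minus control. A probe was fitted by limma if its detection p was under 0.05 on at least 3 of 6 arrays, and p-values were adjusted over all 16018 fitted probes with a threshold of 0.05. Of the 9 member probes, 6 were fitted, 1 each for Fos, Jun, Junb, Jund, Egr1 and Ier3. None of the 6 passed by limma, where 0% of all fitted probes did, and none reached an unadjusted p under 0.05, where 10.4% of all fitted probes did. For none of the 6 did the groups separate, where they did for 15.5% of all fitted probes. The 6 log2 fold changes had a median of 0.12, with 4 above 0 and 2 below, beside a median of 0.0038 and 50.5% above 0 over all fitted probes. With arrays left out in turn, that median ran from -0.05 without Chd1 shRNA replicate 2 to 0.38 without control replicate 1, and it was -0.02 without control replicate 2. A fit without the detection filter gave adjusted p-values of 0.806 for Fosb, 0.913 for Ier2 and 0.984 for the second Junb probe by limma.

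**Figure D1:**
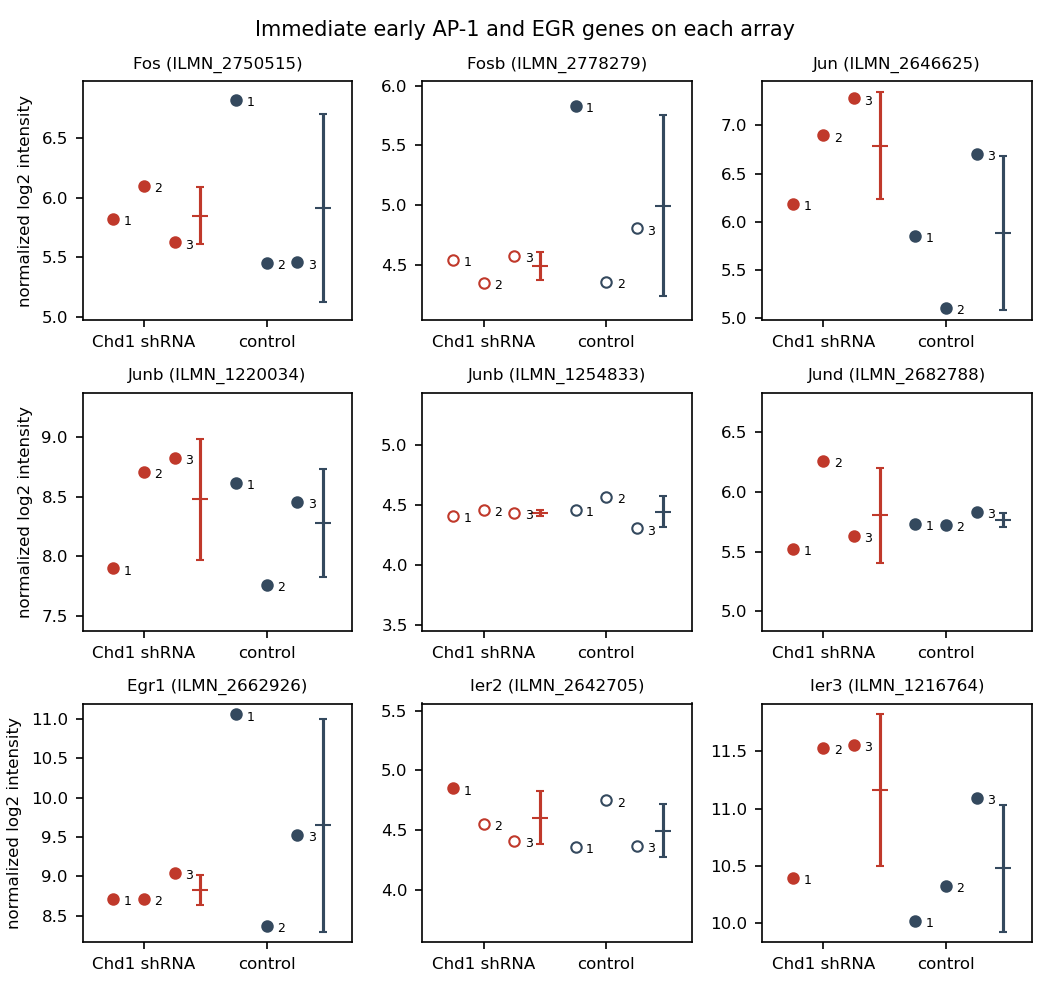
Normalized log2 intensity (vertical axis) of each of the 9 member probes on the 3 Chd1 shRNA arrays and the 3 control arrays, with replicate numbers beside the points, open circles for a detection p of 0.05 or more, and bars for the mean ± SD of 3 arrays. The groups overlap on all 9 probes, and Fos, Fosb and Egr1 are highest on control replicate 1.

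The members were not all high on the same arrays. Fos, Fosb and Egr1 were highest on control replicate 1. Jun and Ier3 were highest on Chd1 shRNA replicates 3 and 2, with control replicate 3 next. Junb was also highest on Chd1 shRNA replicates 3 and 2, but control replicate 1 came next. Jund was highest on Chd1 shRNA replicate 2 and was near its lowest on Chd1 shRNA replicate 3. The sequences just before the transcription start of Fos, Fosb, Jun and Ier3 are shown as examples of genes highest on control replicate 1 and of genes highest on the Chd1 shRNA arrays. RefSeq (GRCm38.p6) start-site entries were at hand for 6 of the 9 members, and not for Egr1, Ier2 or Fosl1. Egr1, the member with the largest lead on control replicate 1, can therefore not be shown. Each line gives the 150 bases before the start, 5′ to 3′ on the gene's strand, with capitals for matches to TGACG (the core of a cyclic AMP response element), TGACATCA (an AP-1-type site), GCGGGGGCG (an EGR-type site) and TATAA, the first 3 searched on both strands.
Fos, chr12:85473740-85473889, plus strand: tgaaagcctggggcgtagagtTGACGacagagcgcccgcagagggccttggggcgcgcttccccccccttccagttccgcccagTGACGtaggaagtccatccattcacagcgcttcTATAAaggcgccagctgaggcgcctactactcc
Fosb, chr7:19310046-19310195, minus strand: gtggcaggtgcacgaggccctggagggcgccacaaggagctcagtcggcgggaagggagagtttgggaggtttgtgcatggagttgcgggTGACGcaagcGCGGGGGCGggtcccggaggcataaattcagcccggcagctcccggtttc
Jun, chr4:95052223-95052372, minus strand: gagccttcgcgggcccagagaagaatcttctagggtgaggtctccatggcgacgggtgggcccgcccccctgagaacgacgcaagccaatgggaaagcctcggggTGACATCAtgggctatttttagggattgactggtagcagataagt
Ier3, chr17:35821563-35821712, plus strand: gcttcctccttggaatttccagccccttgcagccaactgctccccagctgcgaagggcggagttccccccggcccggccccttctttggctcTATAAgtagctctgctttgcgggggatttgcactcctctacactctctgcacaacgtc
TGACG occurred in the Fos window at 129 and 66 bases before the start and in the Fosb window at 60 bases. The window of Junb, which was highest on Chd1 shRNA replicates 3 and 2, also held it, at 106 bases. Among all 32851 start-site windows of this length, 13.3% held it on either strand. The Jun window held TGACATCA at 45 bases before the start, as did 2.32% of all windows, and no TGACG, and the Ier3 window held none either. In the Fosb window GCGGGGGCG lay at 50 bases, and 2.09% of all windows held it. TATAA was found in the Fos and Ier3 windows, against 9.99% of all. None of the 4 windows held a CArG box, the site that serum response factor reads, which 0.916% of all windows did. The Jund window, not shown, held no match to any of these motifs. Sites more than 150 bases before the start were not searched, so their absence from these genes cannot be inferred. These matches describe letters in these windows only.

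Fos and Fosb encode the FOS-side partners of AP-1. Fos read 5.82, 6.10 and 5.63 (normalized log2 intensity) on Chd1 shRNA replicates 1, 2 and 3, against 6.82, 5.46 and 5.46 on control replicates 1, 2 and 3. The Chd1 shRNA values thus lay between the highest control and the other two. Fos had a log2 fold change of -0.06 (SE 0.36, 95% interval -0.87 to 0.74, n = 3 per group) and an adjusted p of 0.962 by limma. Without control replicate 1 its value was 0.39, on the other side of 0, with an adjusted p of 0.736 by limma.

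Fosb gave deposited intensities of 110.5, 101.7 and 115.7 in the Chd1 shRNA group, none above the detection limit, against 156.7, 96.1 and 101.9 in the control group. Only control replicate 1 was above it. On the normalized scale Fosb averaged 4.49 ± 0.12 in Chd1 shRNA and 5.00 ± 0.76 in control arrays (SD, n = 3 each). With the Chd1 shRNA arrays held at their lowest detected signal and the control arrays at their own values, the Fosb mean was 1.17-fold higher in control. That value rests on the 1 control array of 3 that detected the gene. It is no lower bound on the group level, because the other control values were themselves below detection.

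Jun, Junb and Jund encode the JUN-side partners, of which JUN is the classical target of the stress kinase JNK. Jun read 6.19, 6.90 and 7.28 on Chd1 shRNA replicates 1, 2 and 3, against 5.86, 5.11 and 6.70 on control replicates 1, 2 and 3. The groups overlapped because control replicate 3 lay above Chd1 shRNA replicate 1. The Jun log2 fold change was 0.90 (SE 0.41, 95% interval -0.02 to 1.82), a 1.86-fold higher mean in Chd1 shRNA arrays, with an adjusted p of 0.486 by limma. It was the smallest p among the 6 fitted members. The Jun value was 0.42 without background correction and 0.51 without control replicate 2. The authors' processed values also gave 0.42, but they nearly equal those without background correction and are not a separate check. Jun ranked the 6 arrays exactly as the median fibroblast marker did, from Chd1 shRNA replicate 3 down to control replicate 2. So did 136 of the 16018 fitted probes (0.849%). The same comparison was made for Fos, Junb, Jund, Egr1, Ier3 and the FOS relative Fosl2, and none of them matched. Jun is thus the only match among several genes tried. With the mean log2 intensity of the 17 fitted fibroblast markers on each array as a covariate, the Jun log2 fold change was 0.05 (adjusted p = 0.980 by limma). The markers were themselves higher on average in the Chd1 shRNA group (median log2 fold change 0.74), so covariate and group cannot be fully told apart. The part of fibroblast RNA in the Jun value was not tested.

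Junb, whose protein can restrain as well as drive AP-1 activity, was read by 2 probes. Its brighter probe gave 7.90, 8.71 and 8.82 in the Chd1 shRNA group, against 8.61, 7.76 and 8.46 in the control group. Each group held 1 low array and 2 high ones. The Junb log2 fold change was 0.20 (SE 0.31, 95% interval -0.50 to 0.89), with an adjusted p of 0.834 by limma. The second Junb probe was detected on no array.

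Jund, the JUN family gene known for steady rather than induced expression, had the narrowest spread of the fitted members. It read 5.52, 6.26 and 5.63 on Chd1 shRNA arrays, against 5.73, 5.73 and 5.83 on control arrays. The control values differed by less than the Chd1 shRNA values, with SDs of 0.40 in Chd1 shRNA and 0.06 in control (n = 3 each). Its log2 fold change was 0.04 (SE 0.22, 95% interval -0.47 to 0.54, adjusted p = 0.962 by limma), an interval of 0.724-fold to 1.46-fold.

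Egr1 had the widest range of any member. Its deposited intensities were 533.5, 504.8 and 759.6 in the Chd1 shRNA group, against 2698, 334.6 and 610.3 in the control group. The highest and the lowest value both came from controls, 8.06-fold apart before any normalization. On the normalized log2 scale Egr1 read 8.72, 8.72 and 9.05 on Chd1 shRNA arrays and 11.06, 8.37 and 9.52 on control arrays, with SDs of 0.19 in Chd1 shRNA and 1.35 in control. The Egr1 log2 fold change was -0.82 (SE 0.55, 95% interval -2.07 to 0.42) with an adjusted p of 0.599 by limma. Without control replicate 1 it was -0.12, and without control replicate 2 it was -1.46, neither past the threshold.

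Ier2 and Ier3 are small early response genes, and IER3 protein modulates cell survival and ERK signalling. Ier3 read 10.39, 11.53 and 11.55 in the Chd1 shRNA group, against 10.02, 10.33 and 11.09 in the control group. As for Jun, Chd1 shRNA replicates 2 and 3 and control replicate 3 were the high arrays. The Ier3 log2 fold change was 0.68 (SE 0.37, 95% interval -0.16 to 1.51, adjusted p = 0.540 by limma). With the same covariate it was -0.07 (adjusted p = 0.968 by limma), and the part of fibroblast RNA in the Ier3 value was not tested either. The Ier3 value was 1.07 without Chd1 shRNA replicate 1 and 0.45 without control replicate 1. Ier2 stayed near background, with deposited intensities of 118.3, 108.9 and 109.8 in Chd1 shRNA and 107.0, 106.6 and 91.8 in control. Only Chd1 shRNA replicate 1 was above the detection limit.

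Exact two-sided permutation tests over the arrays gave p-values from 0.2 (Jun and Ier3) to 1 (Fos and Jund) for the 6 fitted members, where 3 arrays against 3 allow no less than 0.1.

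**Figure D2:**
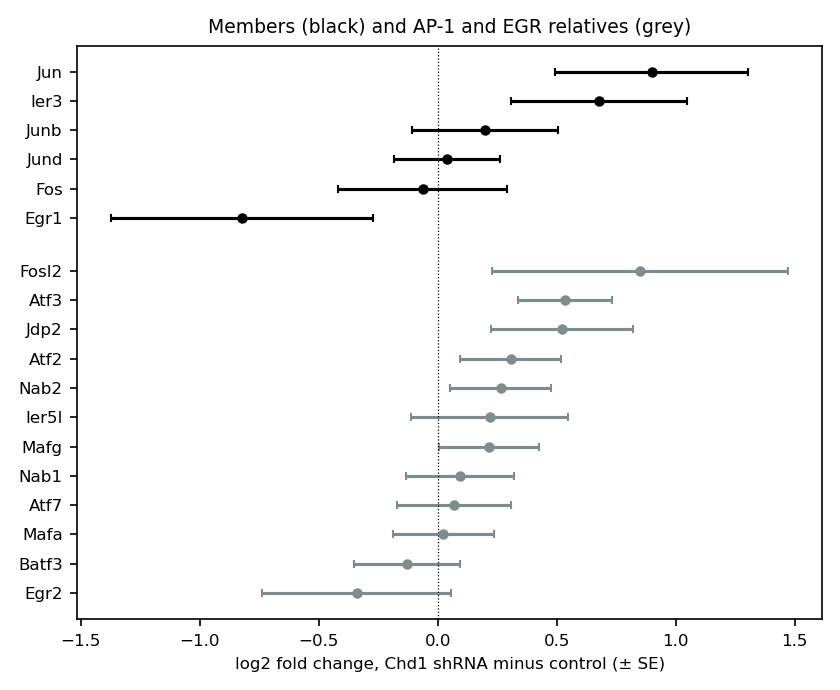
Log2 fold change, Chd1 shRNA minus control (horizontal axis, bars ± SE, 3 arrays per group), of the 6 fitted members in black and of 12 related genes in grey. Jun (0.90), Ier3 (0.68) and Fosl2 (0.85) lie to the right and Egr1 (-0.82) to the left, and no gene shown passed an adjusted p of 0.05 by limma.

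The high values on control replicate 1 were set beside all other probes. Control replicate 1 exceeded every other array by at least 1 log2 unit (2-fold) for 14 of the fitted probes, 0.0874% of them. The corresponding shares were 0%, 0.0812% and 0.0562% for Chd1 shRNA replicates 1, 2 and 3, and 0.0749% and 0.00624% for control replicates 2 and 3. Egr1 was among the 14, with a lead of 1.54 (log2) over the next array, rank 2 of 16018. Fos led by 0.72, rank 76. The largest lead was that of Spry4, an ERK-induced feedback inhibitor of receptor tyrosine kinase signalling, named after its values were seen. The next largest after Egr1 were those of Pdzk1 (1.43), Grhl2 (1.29) and Mobp (1.28), and all 14 probes are covered under Other observations. ERK signalling was not measured, and its part in these leads was not tested. Spry4 read 6.78, 5.80 and 6.14 on Chd1 shRNA arrays, against 8.53, 6.26 and 6.83 on control arrays.

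Egr2, a zinc finger relative of Egr1 also named after its values were seen, showed the same single high array. It read 4.98, 4.57 and 4.77 on Chd1 shRNA replicates 1, 2 and 3, against 6.17, 4.51 and 4.66 on control replicates 1, 2 and 3, and its lead on control replicate 1, the only control to detect it, was 1.19 (log2), rank 8. The log2 fold changes of Spry4 (-0.96, SE 0.52, adjusted p = 0.538) and Egr2 (-0.34, SE 0.40, adjusted p = 0.773) did not pass by limma. Jun, Junb, Jund and Ier3 had no lead on control replicate 1: each was higher on another array, and Ier3 was lowest on control replicate 1.

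**Figure D3:**
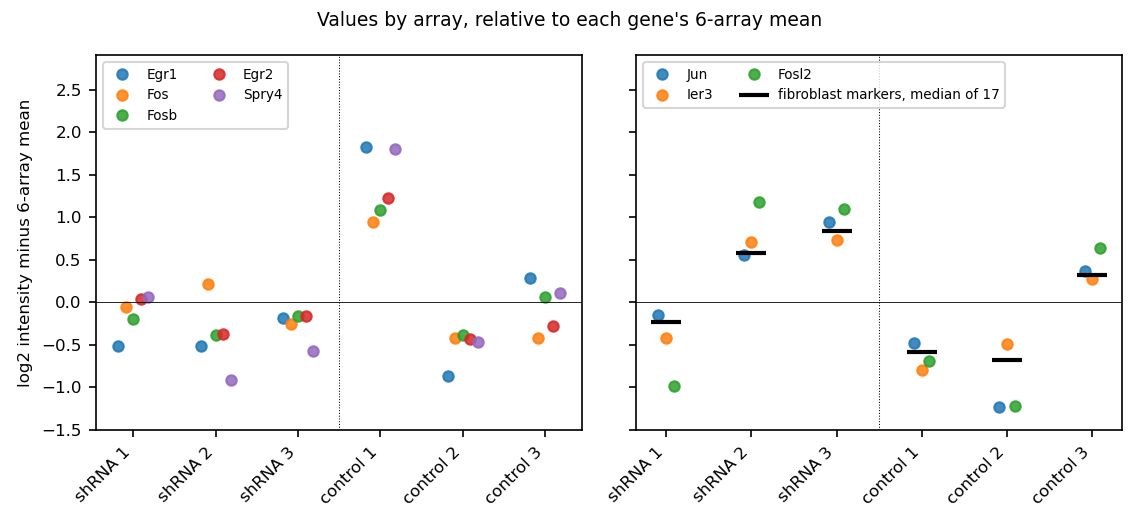
Log2 intensity minus the gene's mean over the 6 arrays (vertical axis) on each Chd1 shRNA and control array, for Egr1, Fos, Fosb, Egr2 and Spry4 on the left and for Jun, Ier3 and Fosl2 on the right, with black bars for the median of 17 fibroblast markers. The genes on the left are highest on control replicate 1, and those on the right are above their mean on Chd1 shRNA replicates 2 and 3 and control replicate 3, where the fibroblast bars stand at 0.57, 0.83 and 0.32.

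Relatives of the members were then described. Of 21 other AP-1, MAF and EGR family genes, cofactors and Ier relatives, 12 were fitted, and by limma 0 passed in either direction. Values were positive for 10 of the 12, with a median log2 fold change of 0.22, beside a median of 0.0057 and 4822 positive of 9507 over all genes with a fitted probe. Fosl2, which encodes the FOS-type AP-1 subunit FRA-2, read 7.02, 9.19 and 9.10 on Chd1 shRNA arrays, against 7.32, 6.79 and 8.65 on control arrays. Its high arrays were the same 3 as for Jun and Ier3. The Fosl2 log2 fold change was 0.85 (SE 0.62, adjusted p = 0.628 by limma).

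Atf3, a stress-induced bZIP repressor that can pair with JUN, was the only one of the 12 whose groups separated, with 4.98, 5.06 and 5.38 on Chd1 shRNA arrays and 4.85, 4.55 and 4.43 on control arrays. Among all fitted probes 6.92% separated with Chd1 shRNA higher. The Atf3 log2 fold change was 0.53 (SE 0.20, adjusted p = 0.414 by limma). Atf3 was detected on 3 of 3 Chd1 shRNA arrays and 1 of 3 control arrays, so it passed the detection filter through the group where it was high. Its separation, 1 of 12 beside that share, is therefore not read as a result. Jdp2, a bZIP dimerization partner and repressor of JUN, had a value of 0.52 (SE 0.30, adjusted p = 0.553 by limma).

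Other early response genes showed no common direction. Of 47 listed, 40 were fitted, 0 passed by limma, and 20 had positive and 20 negative values, with a median of 0.00051. The 3 with the largest differences were the polo-like kinase gene Plk2 (1.05, SE 0.38), the small GTPase gene Rhob (0.99, SE 0.34) and the growth arrest gene Gadd45g (0.99, SE 0.40), with adjusted p-values from 0.395 to 0.454 by limma. Plk2 read 7.42, 8.42 and 8.40 on Chd1 shRNA arrays, against 6.59, 6.67 and 7.83 on control arrays. Arc, an immediate early gene with a serum response factor-dependent enhancer in neurons, was named after its values were seen. It was lower on every Chd1 shRNA array, with 6.51, 6.53 and 6.26 against 7.59, 7.26 and 6.86 on control arrays (log2 fold change -0.80, SE 0.22, adjusted p = 0.297 by limma). Groups separated with Chd1 shRNA lower for 8.58% of all fitted probes.

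Upstream of these genes lie the RAS, RAF and MAP kinases and the factors they act on. Of 32 such genes listed, 19 were fitted and 0 passed by limma, with 7 positive and 12 negative values and a median of -0.09. The largest difference was that of Rps6ka5, the kinase MSK1 that phosphorylates histone H3 and CREB at immediate early genes, with -0.57 (SE 0.20, adjusted p = 0.399). Mapkapk2, a kinase downstream of p38, had a value of 0.40 (SE 0.19) and Elk3, an ETS-family partner of serum response factor, 0.39 (SE 0.29), with Elk3 detected on 2 Chd1 shRNA arrays and 1 control array. The groups separated for 1 of the 19 with Chd1 shRNA higher (Mapkapk2) and for 2 with it lower (Rps6ka5 and the RAS gene Nras), beside 15.5% of all fitted probes in either direction. Nras was named after its values were seen.

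Of 25 listed genes that AP-1 is known to regulate, chosen with earlier results of these data known, 19 were fitted. All 19 values lay above 0, with a median of 0.50, beside 4822 of 9507 over all genes with a fitted probe. The groups separated for 0 of the 19, where they did for 15.5% of all fitted probes, and by limma 0 passed. The largest values were those of the hyaluronan receptor gene Cd44 (1.24, SE 0.65), the haem oxygenase gene Hmox1 (1.07, SE 0.60) and the collagenase gene Mmp13 (1.05, SE 1.02). Cd44 read 8.22, 9.41 and 9.73 on Chd1 shRNA arrays, against 6.55, 7.75 and 9.36 on control arrays, so control replicate 3 exceeded Chd1 shRNA replicate 1. Relative to each gene's 6-array mean the list stood at -0.41, 0.38 and 0.73 on Chd1 shRNA replicates 1, 2 and 3, and at -0.73, -0.59 and 0.45 on control replicates 1, 2 and 3. The same 3 arrays were high as in the fibroblast marker list, of which 16 of 17 values were positive with a median of 0.74, led by Dcn (1.45, SE 0.49), Lox (1.30, SE 0.52) and Col1a1 (1.19, SE 0.41). The part of fibroblast RNA in the values of the AP-1 target list was not tested.

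Heat shock genes, which stress can induce together with immediate early genes, had a median of 0.08 with 11 positive and 4 negative values among 15 fitted of 17, and by limma 0 passed. The largest differences were 1.76 (SE 0.41) for Hspa1a and 1.08 (SE 0.29) for Hspa1b, both inducible chaperone genes, and 1.42 (SE 0.69) for the small heat shock gene Cryab, with adjusted p-values from 0.240 to 0.506 by limma. Hspa1a and Hspa1b are near-identical copies, whose probes may share signal. Hspa1b was detected on 3 of 3 Chd1 shRNA arrays and 1 of 3 control arrays, so it passed the detection filter through the group where it was high. Hspa1a was lowest on control replicate 1, at 5.55, where Egr1 and Fos were highest. Embryonic stem cell markers had 13 negative values of 16 with a median of -0.37 and 0 passed by limma, Tcl1 with -1.19 (SE 0.25), Sox2 with -0.79 (SE 0.32) and Zfp42 with -0.78 (SE 0.27) leading.

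At an unadjusted p under 0.05 by limma, reached by 10.4% of all fitted probes, there were 1 of 12 relatives, 8 of 40 other early response genes (6 higher and 2 lower), 1 of 19 upstream genes, 1 of 19 AP-1 targets, 4 of 15 heat shock genes, 7 of 17 fibroblast markers and 4 of 16 stem cell markers.

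**Figure D4:**
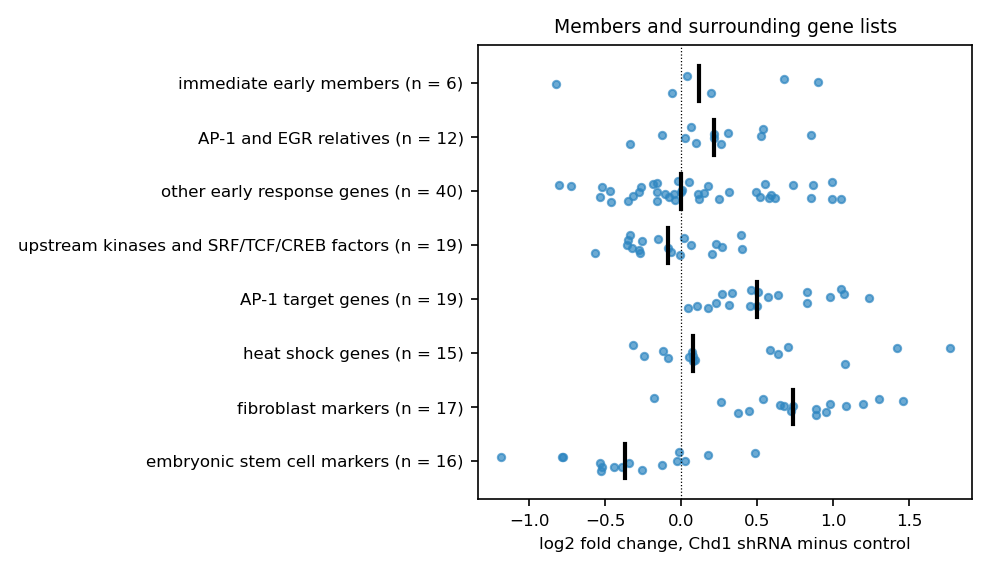
Log2 fold change, Chd1 shRNA minus control (horizontal axis), of each fitted gene (points, brightest probe) by list, with a black bar at the median. The 6 members spread from -0.82 to 0.90 around a median of 0.12. All 19 fitted AP-1 target genes lie above 0, though the groups overlap for each of them.

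The member profile, the median over the 6 fitted members of the log2 intensity relative to the gene's 6-array mean, was -0.34, 0.40 and 0.15 on Chd1 shRNA replicates 1, 2 and 3 and 0.09, -0.55 and 0.18 on control replicates 1, 2 and 3. Junb followed it most closely of the members (Pearson r = 0.930 over 6 arrays) and Fos least (0.340). Each member is part of the profile, so these correlations are partly built in. Among 9298 other genes the 5 most like the profile were Bmpr1b, a BMP receptor gene (r = 0.991), Atf7, a bZIP factor gene of the ATF2 group (0.983), Rala, a RAS-like GTPase gene (0.978), Fam178b (0.976) and Cldnd1 (0.972). These 5 are the highest of many correlations over 6 arrays and carry no test.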

How the data were processed

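Per the submitters' processing notes, beads were summarised in GenomeStudio, and the sources used here give no version. The deposited unnormalized table holds a linear intensity for each of 45281 probes, not background-subtracted, and the same deposited table holds a detection p-value for each probe and array. A second deposited table, of intensities the authors had processed in a way the sources used here do not state, served as an alternative. Its columns ranked probes as the unnormalized ones did. Member fold changes from it nearly equalled those without background correction (Egr1 -0.754 in both), so these alternatives are not separate checks.

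Normalization followed neqc (limma 3.58.1, R 4.3.3): normexp background correction, with the negative controls' mean and variance estimated through the detection p-values, an added offset of 16, quantile normalization and log2. The offset shrinks differences of dim probes. The platform annotation gave 1 gene to 34885 probes, several to 18 and none to 10378. Probes that at least 3 of 6 arrays detected (p under 0.05) were fitted with lmFit and eBayes, Benjamini-Hochberg adjusted over 16018, and the code was tested on simulated data. A gene with several probes was represented by the brightest. SDs and SEs are on the log2 scale.

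Members and lists were chosen with earlier results of these data known. From each list the 3 genes with the largest difference are named, as are the genes most like the member profile. Other genes outside the members were named after their values were seen.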

Additional observations from a re-analysis of the deposited data

How the results depend on the processing

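By limma, no member passed the threshold under any of 17 alternatives: an offset of 50, no background correction, median and 75th percentile scaling, the authors' processed table, no or a stricter detection filter, 1 probe a gene, intensity trend with robust variance, array weights, the fibroblast level as a covariate, and leaving out each array. Over all probes 31 passed with intensity trend and robust variance, 1 with median scaling and 1 with array weights. Median scaling moved the median of all probes to 0.21. The members' median ran from -0.10 (fibroblast covariate) to 0.38 (median scaling), and from -0.05 to 0.38 with arrays left out. Jun stayed above 0 (0.05 with the covariate to 1.32 without control replicate 3) and Egr1 below (-1.46 to -0.12) under all 17. A changed detection filter, 1 probe a gene, and intensity trend with robust variance cannot move the fold change of a probe. Those settings therefore say nothing about its sign. Fos was 0.12 with median scaling, still below the median of all probes there. It turned to 0.0043 with array weights and to 0.15 with the fibroblast covariate, which also turned Ier3 to -0.070, Junb to -0.25 and Jund to -0.13. With arrays left out, Fos ran from -0.29 to 0.39 (turning without control replicate 1 or, at 0.04, Chd1 shRNA replicate 3), Junb from -0.059 (without control replicate 2) to 0.48, and Jund from -0.19 (without Chd1 shRNA replicate 2) to 0.18. The cause was not tested. The number of members whose groups did not overlap then ran from 0 to 3 (without Chd1 shRNA replicate 1). Groups of fewer arrays separate more readily, and the share over all fitted probes is not given for these fits. That number is therefore not read as a result about the members. No paired analysis was possible because the labels give no replicate numbers, and those used here follow only the order of the samples. Fosb, Ier2 and the second Junb probe were near background on most arrays, which limits what differences could be detected.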

Other observations

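Besides Egr1, Egr2 and Spry4, the probes on which control replicate 1 stood at least 1 log2 unit above every other array belonged to Pdzk1 (2 probes, leads of 1.43 and 1.11), Grhl2 (1.29), Mobp (1.28), Actn3 (1.27), Aoc3 (1.25), Ireb2 (1.10), Dnajc6 (1.07), Ifitm1 (1.03) and Ipo7 (1.00), with 1 probe that has no gene name here (1.12). Pdzk1 encodes a scaffold protein of membrane transporters and Grhl2 an epithelial transcription factor.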
